A study of Mus musculus with 2 samples.

Results

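This account follows 10 imprinted growth genes, Cdkn1c, H19, Igf2, Meg3, Rian, Dlk1, Peg3, Plagl1, Grb10 and Mest, in mouse heart tissue treated with probucol or left untreated. They were taken by name from the 24346 gene symbols of each library, and the set was selected on the FPKM of Cdkn1c, which was among the genes highest with probucol. That difference is therefore a description here and supports nothing further. All 10 symbols were listed, and 9 of them had a mean of at least 0.5 FPKM (fragment number divided by transcript length in kilobases and by the mapped fragments of the library), the limit above which a gene is called measured below; Dlk1 fell under it.

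RNA sequencing was done on 2 libraries of preserved, frozen heart tissue, 1 from HFD-MI heart treated with probucol, a cholesterol-lowering antioxidant, and 1 from HFD-MI heart left untreated. HFD is read here as high-fat diet and MI, per the series title, for myocardial infarction, so the diet and the infarction were shared by both. The age label is day 14 in both, and the event from which days were counted is not stated there. The column headers carry the mark HypoE in both libraries, which the labels do not explain, and strain, allele, sex, pooling of animals and the part of the heart taken are likewise not given. With 1 library per group there is no replicate check and no test between treatments: each value describes these libraries.

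Imprinted genes are transcribed mainly from the copy inherited from 1 parent, and they lie in clusters in which a methylated control region sets which parental copy is read. Many act on growth before birth: as a rule, paternally expressed genes favour it and maternally expressed genes restrain it. Most of them are turned down after birth, when the heart stops growing by cell division. Of the members, Cdkn1c, H19, Meg3, Rian and Grb10 are known to be read mainly from the maternal copy in most mouse tissues, and Igf2, Dlk1, Peg3, Plagl1 and Mest from the paternal copy. FPKM does not separate the copies.

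Cdkn1c was higher in the probucol library, Mest, Meg3 and Rian were lower, and the 3 most abundant members, H19, Igf2 and Grb10, lay within 1.5-fold. Differences are given as log2((FPKM with probucol + 0.5)/(FPKM untreated + 0.5)), a scale that understates the difference of low genes. Of the 9 measured members, 1 was at least 1.5-fold higher and 3 were at least 1.5-fold lower. By a 2-fold limit, 1 member was higher (Cdkn1c) and 1 lower (Mest). Over all 12882 measured genes, 5.52% were at least 1.5-fold higher and 12% at least 1.5-fold lower, and 1.07% and 5.14% were past 2-fold; nothing is read from the comparison because the choice of members used this contrast. The members' median log2 ratio was -0.36, beside 0.0084 for all measured genes. Maternally expressed members had a median of -0.29 (5 measured, 1 higher and 2 lower by the 1.5-fold limit), and paternally expressed members had -0.44 (4 measured, 0 higher and 1 lower).

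The summed level of the 10 members was 91.8 FPKM with probucol and 96.6 FPKM untreated. H19, Igf2 and Grb10 held 82.2% of that sum with probucol and 80.3% without. The order of levels in the probucol library was Grb10, H19, Igf2, Cdkn1c, Mest, Rian, Plagl1, Meg3, Peg3 and Dlk1. In the untreated library it was H19, Grb10, Igf2, Mest, Rian, Cdkn1c, Meg3, Plagl1, Peg3 and Dlk1. With no replicates, whether neighbours in these orders differ cannot be said; the change of place of Cdkn1c, to the fourth rank with probucol against the sixth untreated, is the same difference that chose the set.

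**Figure D1:**
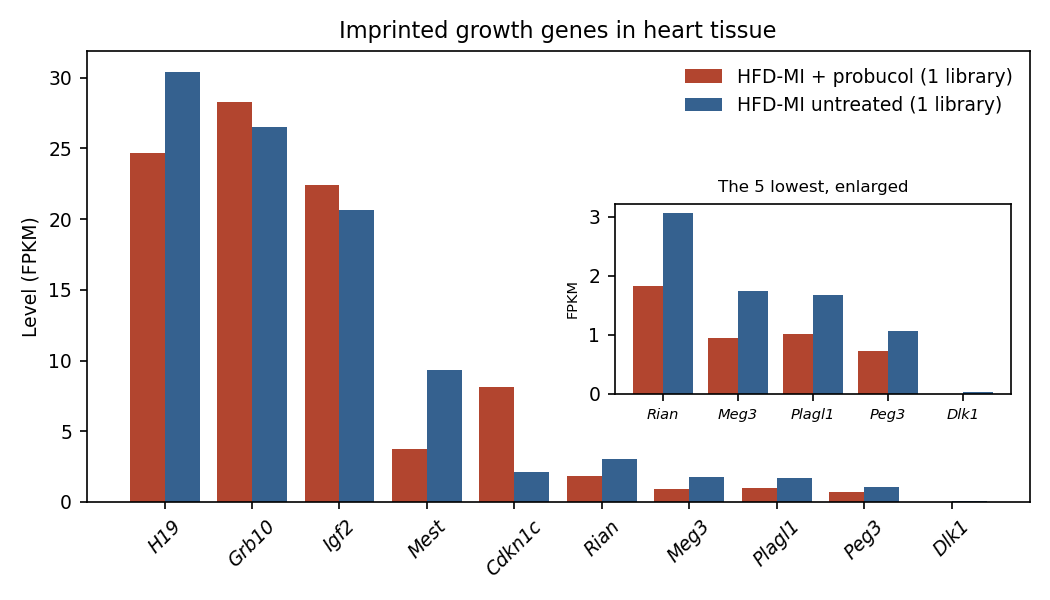
Levels of the 10 imprinted growth genes, in FPKM, with probucol (red, left bar) and untreated (blue, right bar), 1 library each; the inset enlarges the 5 lowest. H19, Grb10 and Igf2 lie between 20.6 and 30.4 FPKM in both libraries, Cdkn1c is higher with probucol and Mest lower.

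Cdkn1c encodes an inhibitor of cyclin-dependent kinases that holds cells out of the division cycle. The gene lies on chromosome 7, 143458339 to 143461050 on the minus strand (GRCm38/mm10, GENCODE vM21). It had 8.10 FPKM with probucol and 2.13 FPKM untreated, a log2 ratio of 1.71 and an FPKM ratio of 3.80. Only 43 of the 12882 measured genes had a higher log2 ratio. By level, 50.7% of measured genes lay below it with probucol and 17.9% untreated.

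The depth behind this value could be estimated. Low FPKM values fall on steps that correspond to whole fragments, so the FPKM of a gene with a known transcript length can be turned back into an approximate fragment number. One kilobase of effective transcript at 1 FPKM was worth 6.71 fragments with probucol and 7.49 untreated. For Cdkn1c this gave 91 fragments with probucol and 27 untreated. The exact binomial (Clopper-Pearson) 95% interval of the FPKM ratio ran between 2.43 and 6.02. Such intervals here cover counting error only, not the spread between animals. As the set was picked on this difference, the interval of Cdkn1c describes the depth behind the value and gives no support for it.

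The genes nearest to Cdkn1c were found by log2 ratio among 8179 named genes that reached 5 FPKM in either library, a likeness over 2 libraries that says nothing of shared control. Cdkn1c had rank 12 among them. Just above it were Timp4 (1.80), an inhibitor of matrix metalloproteinases, H2-Q6 (1.91), a class I histocompatibility gene whose reads cannot be told from those of near-identical copies, and Lrrc4b (2.05), a synaptic adhesion protein. Just below it were Gdpd3 (1.70), a lysophospholipase, the transcript AI507597 (1.69) and Pxmp2 (1.48), a peroxisomal membrane channel. Their levels ran from that of H2-Q6, 5.17 FPKM with probucol and 1.01 untreated, to that of Gdpd3, 126 and 38.5 FPKM.

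Other inhibitors of cyclin-dependent kinases lay nearer to 0 than Cdkn1c, which was picked for its difference, or below 0. The closest relatives of Cdkn1c are Cdkn1a, the inhibitor induced by p53, and Cdkn1b, which restrains resting cells. Cdkn1a had 38.0 FPKM with probucol and 36.9 untreated, and Cdkn1b had 17.7 and 16.5 FPKM. Cdkn1c was the least abundant of the 3 in both libraries, and it made up 12.7% of their summed FPKM with probucol and 3.84% untreated. The sum itself was 63.8 FPKM with probucol and 55.4 untreated.

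Over all measured genes, 5.52% were at least 1.5-fold higher and 12% lower, the shares to set beside the counts of each list below. The G1 control list, of inhibitors, cyclins, kinases and their targets, does not hold Cdkn1c. Among its 16 measured genes, 0 were higher and 5 lower by the 1.5-fold limit, and the median log2 ratio was -0.31. The lowest was Rbl1 (-1.20), a relative of the retinoblastoma protein, which had 0.575 FPKM with probucol and 1.98 untreated, about 18 and 69 fragments. E2f1 (-1.05), the transcription factor that switches on genes of DNA replication, had 1.32 FPKM with probucol and 3.26 untreated. Ccne1 (-0.90), the cyclin that drives entry into S phase, and the inhibitor Cdkn2b (-0.70) rested on few fragments, 4 and 14 for Ccne1 and 4 and 10 for Cdkn2b, and their intervals include no difference. The inhibitor Cdkn2c (-0.60) completed the group. All 5 general proliferation markers measured here (Mki67, Top2a, Ccna2, Birc5 and Cdk1) were lower too, with a summed level of 7.71 FPKM with probucol and 29.8 untreated, and their part in these differences was not tested.

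**Figure D2:**
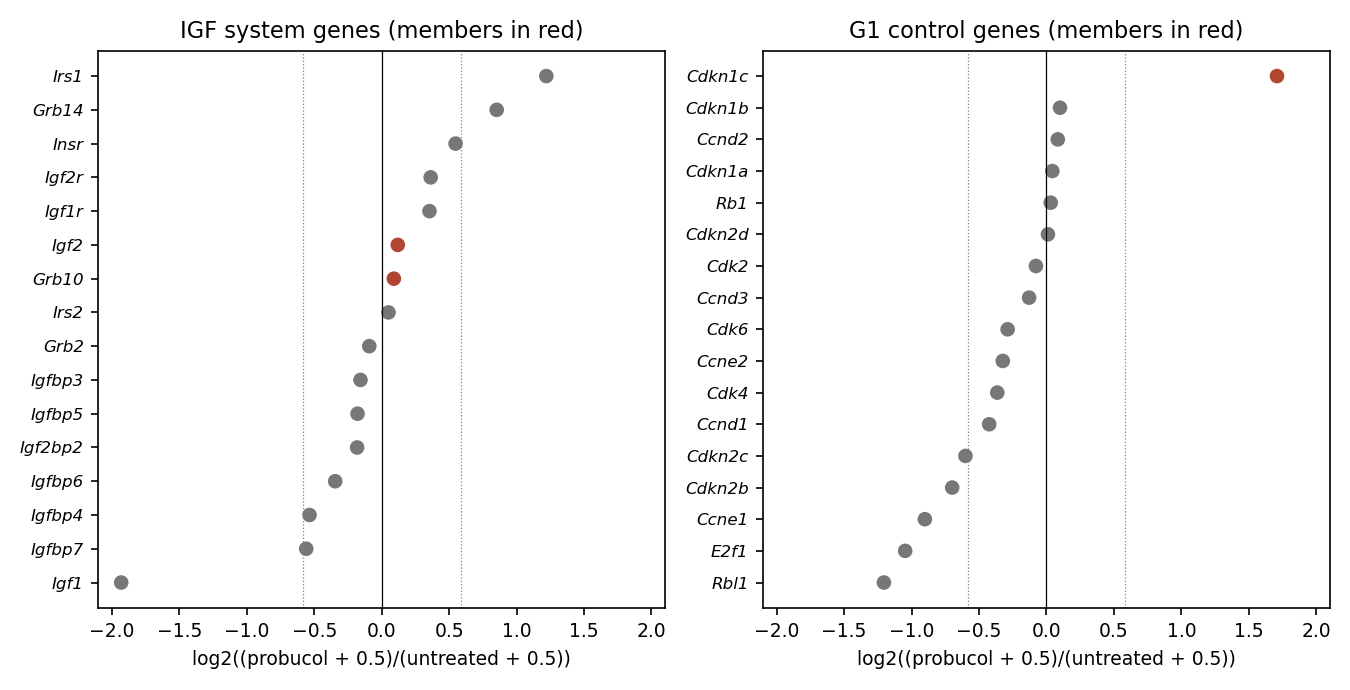
Log2 ratio (horizontal axis) of each measured gene of the IGF system (left) and of G1 control (right), with the imprinted members Igf2, Grb10 and Cdkn1c in red; dotted lines mark 1.5-fold. Cdkn1c (1.71), the gene on whose difference the set was picked, lies above every G1 control gene shown, the highest of which is Cdkn1b (0.10). Igf2 (0.12) and Grb10 (0.090) lie near 0 while Igf1 lies at -1.93.

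Igf2, the fetal growth factor of the insulin family, and H19, the long noncoding RNA that shares its enhancers, lie next to each other on chromosome 7 (142650766 to 142666816 and 142575529 to 142578143, both on the minus strand). Igf2 had 22.4 FPKM with probucol and 20.6 untreated, a log2 ratio of 0.12 whose sign turned when both libraries were rescaled to the same sum. H19 had 24.7 FPKM with probucol and 30.4 untreated, a log2 ratio of -0.29 from about 344 and 472 fragments, and the interval of its FPKM ratio ran between 0.706 and 0.937. Per length, Igf2 stood at 0.908 of the level of H19 with probucol and at 0.678 untreated. By level, 76.6% of measured genes lay below H19 and 74.7% below Igf2 with probucol, and 80.6% and 73.4% untreated.

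Igf1, the growth factor that carries growth hormone signals and that macrophages and fibroblasts make in injured tissue, was lower with probucol. It had 6.36 FPKM with probucol and 25.7 untreated, a log2 ratio of -1.93. Per length, Igf2 was therefore 3.52 times as abundant as Igf1 with probucol and 0.803 times as abundant untreated. Igf1 has 5 transcripts of very different length in the annotation, which leaves its fragment number between 19 and 292 with probucol and between 85 and 1315 untreated.

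Receptors and adaptors of the pathway lay between -0.092 (the adaptor Grb2) and 1.22 (Irs1) on the log2 scale. Igf1r, the receptor that transmits the signal of both ligands, had 3.63 FPKM with probucol and 2.73 untreated. Igf2r, the imprinted receptor that takes up and degrades the Igf2 protein, had 33.4 and 25.8 FPKM. Irs1, an adaptor that couples these receptors to downstream kinases, had 7.77 FPKM with probucol and 3.05 untreated (log2 ratio 1.22, about 466 and 204 fragments). Of the 14 measured genes of the IGF list, Irs1 and Grb14 were at least 1.5-fold higher and Igf1 was at least 1.5-fold lower; the list's median was -0.12. The binding proteins Igfbp7 (-0.56) and Igfbp4 (-0.53) lay just inside the limit.

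Grb10 is an adaptor that binds the insulin and IGF receptors and restrains them, and growth is increased in mice that lack its maternal copy. The gene lies on chromosome 11, 11930508 to 12038683 on the minus strand. It had 28.3 FPKM with probucol and 26.5 untreated, a log2 ratio of 0.090 that became -0.054 when the libraries were rescaled to the same sum. The value rests on about 861 and 903 fragments, with an interval of the FPKM ratio between 0.969 and 1.17, the narrowest among the members. Its relative Grb14, which also restrains the insulin receptor and is in none of the imprinted lists, had 99.95 FPKM with probucol and 55.1 untreated (log2 ratio 0.85).

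Mest, which encodes a membrane protein of the hydrolase family linked to growth of the embryo and of fat cells, was the lowest member relative to the untreated library. The gene lies on chromosome 6, 30723547 to 30748465 on the plus strand. It had 3.77 FPKM with probucol and 9.35 untreated, a log2 ratio of -1.20. This rests on about 55 and 152 fragments, and the interval of its FPKM ratio ran between 0.291 and 0.553. The end of Mest overlaps Copg2 on the opposite strand, which was level at 16.2 FPKM with probucol and 16.8 untreated; the library kit marks strand, but whether counting used it is not stated.

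Meg3 and Rian are long noncoding RNAs of the Dlk1-Dio3 cluster on chromosome 12, where the maternal copy yields noncoding RNAs and the paternal copy yields Dlk1. Meg3 (109541001 to 109571726, plus strand) had 0.935 FPKM with probucol and 1.73 untreated, a log2 ratio of -0.64. Rian (109603940 to 109661716, plus strand), a host of small nucleolar RNAs and miRNAs, had 1.82 FPKM with probucol and 3.06 untreated, a log2 ratio of -0.62. On this scale both differed by nearly the same amount, while a pseudocount of 0.1 FPKM gave -0.83 for Meg3 and -0.72 for Rian. Both lay close to the 1.5-fold limit and fell inside it, at -0.50 and -0.53, with a pseudocount of 1 FPKM. The transcripts of Meg3 differ so much in length that its fragment number lay between 11 and 90 with probucol and between 22 and 186 untreated; with the shortest transcript the interval of its FPKM ratio, between 0.244 and 1.20, includes no difference. No transcript length was matched for Rian, so its depth is unknown.

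Dlk1, a membrane protein related to the Notch ligands that keeps precursor cells undifferentiated, was listed at 0 with probucol and at 0.0348 FPKM untreated, which is about 1 fragment or fewer. A count of 0 allows up to 3 fragments, so a difference could not be detected at this depth. Of the 12 measured genes of the Notch system, 0 were past the 1.5-fold limit in either direction, with a median of 0.082.

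Peg3 and Plagl1 encode zinc finger transcription factors. Peg3 (chromosome 7, 6703892 to 6730431, minus strand), a regulator linked to p53 and to stem cells of many tissues, had 0.722 FPKM with probucol and 1.06 untreated, a log2 ratio of -0.36. Its transcript of 8694 bases gave about 41 and 68 fragments, and the interval of the FPKM ratio, between 0.445 and 1.01, includes no difference. Plagl1 (chromosome 10, 13060504 to 13131694, plus strand), known in mouse as a regulator of a network of imprinted growth genes, had 1.01 FPKM with probucol and 1.67 untreated. Its log2 ratio was -0.53, from about 34 and 63 fragments, with an interval of the FPKM ratio between 0.385 and 0.929. Plagl1 passed the 1.5-fold limit with a pseudocount of 0.1 FPKM (-0.68) and after rescaling to the same sum.

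**Figure D3:**
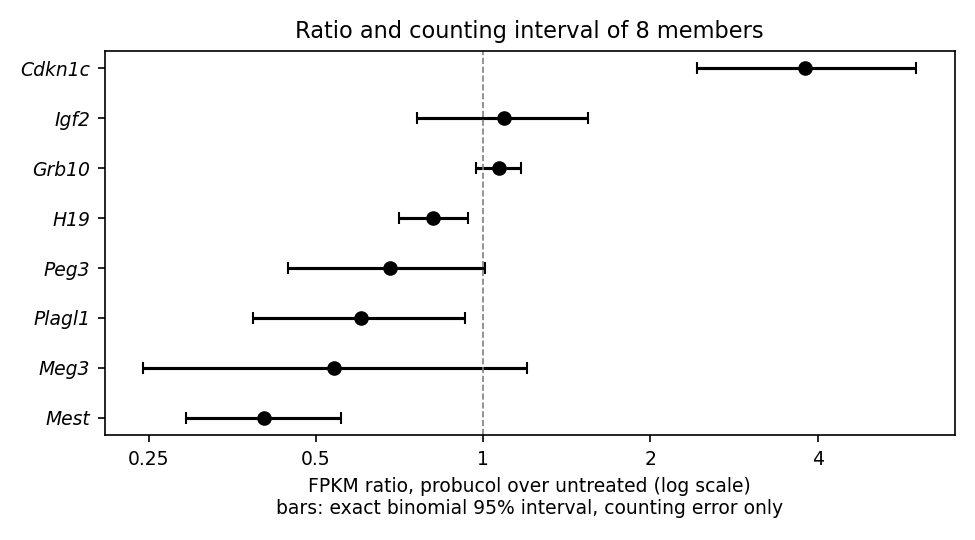
FPKM ratio of probucol over untreated (points, log scale) with exact binomial 95% intervals (bars, counting error only, from the shortest matched transcript) for the 8 members whose fragments could be estimated. The interval of Cdkn1c, the gene on whose difference the set was picked, lies above 1. Those of Mest, Plagl1 and H19 lie below 1, and those of Igf2, Grb10, Peg3 and Meg3 include 1. The longest transcript of Meg3 gives more fragments, and no interval was computed with it.

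The start regions of Mest, Meg3 and Rian, the members past the 1.5-fold limit on the lower side, were searched for CG dinucleotides. Those of Plagl1, Peg3 and Grb10, which did not pass that limit, were set beside them. The windows of Igf2, which did not pass it either, and of Dlk1, which was not measured, are not printed. CG dinucleotides can carry methylation, which was not measured. Whether these start regions lie in the methylated control regions of their clusters was not tested. Each window is the RefSeq sequence (GRCm38.p6) from 250 bases before to 50 bases after an annotated start, read 5′ to 3′ on the gene's strand, with every CG in capitals. Of the members, 8 had such windows, 15 in all (H19 and Cdkn1c had none); the first window is shown for Meg3 and Grb10, and for Mest the pair that does not overlap.
Mest upstream window, chr6:30733256-30733555, plus strand: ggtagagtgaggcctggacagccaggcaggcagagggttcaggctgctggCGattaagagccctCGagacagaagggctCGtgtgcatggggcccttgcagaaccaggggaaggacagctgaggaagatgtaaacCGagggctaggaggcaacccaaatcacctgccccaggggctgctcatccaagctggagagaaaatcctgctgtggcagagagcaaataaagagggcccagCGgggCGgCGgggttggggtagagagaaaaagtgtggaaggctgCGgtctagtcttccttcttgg
Mest downstream window, chr6:30737800-30738099, plus strand: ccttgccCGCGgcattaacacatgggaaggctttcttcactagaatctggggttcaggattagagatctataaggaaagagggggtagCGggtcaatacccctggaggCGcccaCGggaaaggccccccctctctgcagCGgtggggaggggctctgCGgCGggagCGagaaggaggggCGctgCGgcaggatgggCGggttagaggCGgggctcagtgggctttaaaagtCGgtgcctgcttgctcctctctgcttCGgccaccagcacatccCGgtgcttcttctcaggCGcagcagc
Meg3 window, chr12:109540746-109541045, plus strand: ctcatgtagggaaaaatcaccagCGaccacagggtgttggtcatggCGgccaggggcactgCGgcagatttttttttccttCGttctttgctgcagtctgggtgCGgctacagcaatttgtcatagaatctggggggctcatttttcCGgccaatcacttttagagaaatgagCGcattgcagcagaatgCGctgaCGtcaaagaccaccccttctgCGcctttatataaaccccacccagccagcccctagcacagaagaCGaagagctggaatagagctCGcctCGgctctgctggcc
Rian window, chr12:109603695-109603994, plus strand: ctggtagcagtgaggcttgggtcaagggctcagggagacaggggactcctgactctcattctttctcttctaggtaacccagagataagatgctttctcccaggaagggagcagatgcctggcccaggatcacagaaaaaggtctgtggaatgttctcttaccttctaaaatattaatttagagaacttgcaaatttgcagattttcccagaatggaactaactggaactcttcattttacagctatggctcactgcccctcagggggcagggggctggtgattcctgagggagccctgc
Plagl1 window, chr10:13090582-13090881, plus strand: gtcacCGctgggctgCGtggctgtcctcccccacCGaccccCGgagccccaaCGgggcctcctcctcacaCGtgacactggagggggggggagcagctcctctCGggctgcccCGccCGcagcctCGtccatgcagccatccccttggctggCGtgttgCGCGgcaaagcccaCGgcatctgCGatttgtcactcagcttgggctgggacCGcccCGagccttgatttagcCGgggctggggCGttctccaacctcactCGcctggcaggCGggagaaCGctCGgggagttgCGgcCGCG
Peg3 window, chr7:6730370-6730669, minus strand: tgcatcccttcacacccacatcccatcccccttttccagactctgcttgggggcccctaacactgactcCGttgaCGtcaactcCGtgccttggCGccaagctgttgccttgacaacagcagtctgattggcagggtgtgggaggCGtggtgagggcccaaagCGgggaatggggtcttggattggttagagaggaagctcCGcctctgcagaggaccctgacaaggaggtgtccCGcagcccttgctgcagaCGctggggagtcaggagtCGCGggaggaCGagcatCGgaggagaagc
Grb10 window, chr11:12037371-12037670, minus strand: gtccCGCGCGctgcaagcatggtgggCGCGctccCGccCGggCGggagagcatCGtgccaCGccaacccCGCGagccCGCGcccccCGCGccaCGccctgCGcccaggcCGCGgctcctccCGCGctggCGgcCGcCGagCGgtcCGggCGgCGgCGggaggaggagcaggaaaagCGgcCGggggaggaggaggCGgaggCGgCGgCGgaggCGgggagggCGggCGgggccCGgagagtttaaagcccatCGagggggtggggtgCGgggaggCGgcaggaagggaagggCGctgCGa

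The CG content of the windows printed here ranged widely. The window of Rian held 0 CG and that of Meg3 held 13. Any link between CG content and the log2 ratios was not tested. The upstream window of Mest held 8 CG and the downstream window 17. Plagl1 held 26 and Peg3 13, and Grb10 held 45, a number reached by 1.93% of the 32851 windows of 300 bases in the table. The second windows, not printed, held 9 CG for Grb10 and 1 for Meg3. Also not printed were the windows of Igf2, with 2, 14, 24 and 7 CG, and that of Dlk1, with 9. The median over all windows was 7. The letters GGGGCCCC, a GC-rich element of the kind that the Plagl1 protein binds, which reads the same on both strands, were found in 1 of the 15 windows, that of Peg3, and in 1.08% of all windows.

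Measured neighbours in the Kcnq1 and Mest clusters lay nearer to 0 than Cdkn1c and Mest. The contrast with Cdkn1c was fixed in advance, as the set was picked on its difference. In the Kcnq1 cluster, which holds Cdkn1c, 5 of 9 listed neighbours were measured, and their log2 ratios lay between -0.42 and 0.17. Kcnq1, a potassium channel gene of heart muscle, had 17.1 FPKM with probucol and 18.8 untreated. Kcnq1ot1, the noncoding RNA that silences Cdkn1c on the paternal copy, did not pass the filter, at 0.0700 FPKM with probucol and 0.0563 untreated. Its transcript of 93092 bases nonetheless gave about 44 fragments with probucol and 39 untreated. The interval of its FPKM ratio, between 0.800 and 1.99, includes no difference. Kcnq1ot1 lies within the span of Kcnq1 on the opposite strand, and whether counting used strand is not stated. Its fragments may therefore include reads of Kcnq1. Phlda2 was listed at 0 in both libraries. In the Mest cluster the measured neighbour was Copg2 (-0.045). In the Grb10 cluster the measured neighbour was Ddc (0.094). The other neighbours in the Dlk1-Dio3 cluster, Rtl1, Mirg and Dio3, and those in the Peg3 cluster, Zim1 and Usp29, did not pass the filter. Nor did Ins2, the listed neighbour in the H19-Igf2 cluster. The neighbours are genes known to be imprinted in some tissue, and whether they are imprinted in heart was not tested.

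**Figure D4:**
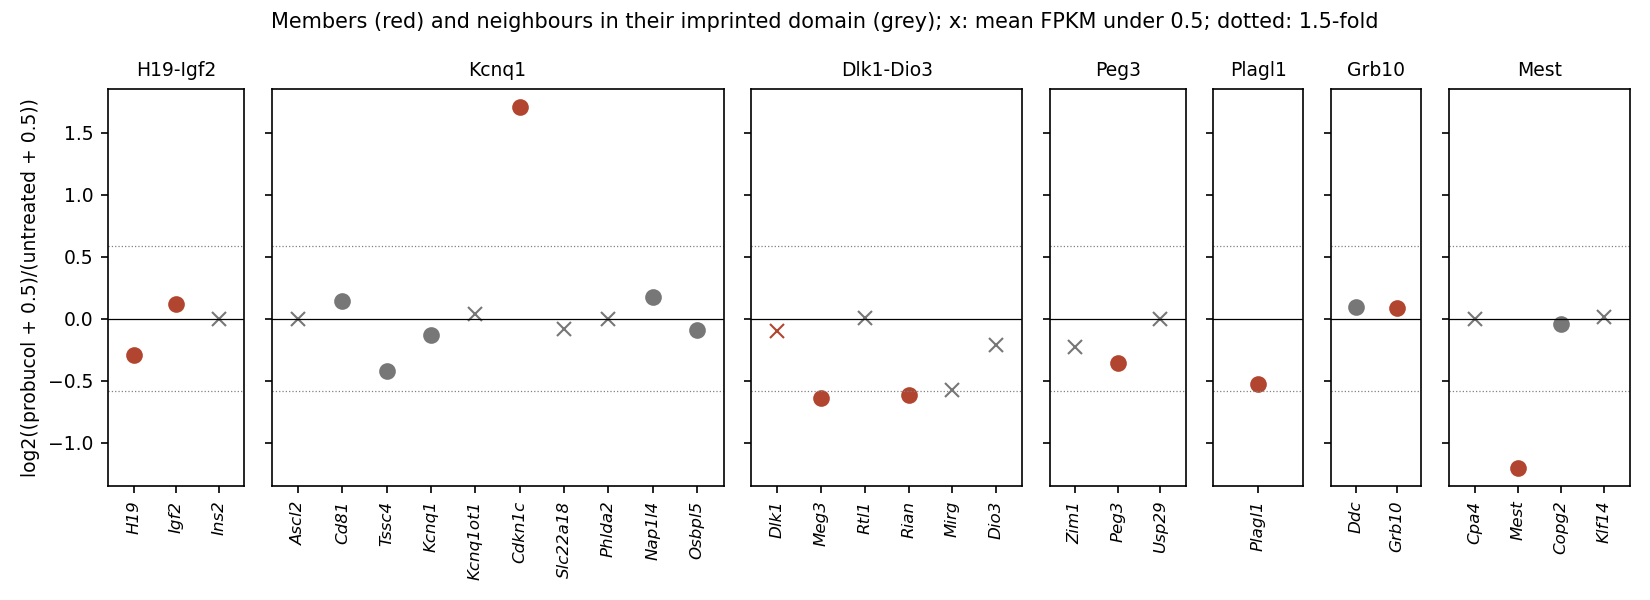
Log2 ratio (vertical axis) of the members (red) and of neighbours in the same imprinted cluster (grey), in chromosomal order without scale; crosses mark genes with a mean under 0.5 FPKM and dotted lines mark 1.5-fold. Cdkn1c (1.71), the gene on whose difference the set was picked, lies above the other genes of the Kcnq1 cluster. Meg3 and Rian lie together at -0.64 and -0.62.

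A wider list of mouse genes known to be imprinted in at least 1 tissue, without the members, held 57 genes, of which 56 were listed and 33 measured. Over all measured genes, 5.52% were at least 1.5-fold higher and 12% at least 1.5-fold lower. Of the 33 genes of the list, 2 were at least 1.5-fold higher, 2 were at least 1.5-fold lower and 29 lay between. Their median log2 ratio was 0.094. Nothing about imprinted genes as a group is read from these counts. The 2 higher were Blcap (0.69), which had 28.7 FPKM with probucol and 17.6 untreated, and Snrpn (0.65), a component of the splicing machinery, which had 45.1 and 28.6 FPKM. The 2 lower were Gatm (-1.16), an enzyme of creatine synthesis, with 1.95 FPKM with probucol and 4.98 untreated, and Tfpi2 (-1.16), an inhibitor of serine proteases, with 1.15 and 3.19 FPKM from about 10 and 32 fragments. After rescaling to the same sum per library, 0 of the 33 were higher and 3 were lower by this limit, so the calls of Blcap and Snrpn depend on the scaling. Imprinting of several of these genes, Gatm and Tfpi2 among them, is known mainly from the placenta. A further 10 genes of the list were at 0 in both libraries. The precursors hosted by members, Mir675 in H19, Mir483 in Igf2, Mir335 in Mest and Mir770 in Meg3, were also listed at 0 in both libraries, which in such a file can be a failed estimate for a very short RNA.

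Markers of several cell types differed between the libraries beside these genes. In bulk tissue, fewer cells of a type and less RNA per cell cannot be told apart. Defining markers of the labelled tissue were present: all 10 cardiomyocyte genes were measured, with a summed level of 71784 FPKM with probucol and 51827 untreated, and of 4 atrial genes Nppa, which stressed ventricles also express, had 1565 and 4005 FPKM, Myl4 7.53 and 5.75 FPKM and Sln 0.958 FPKM with probucol and 0 untreated, while Myl7 was listed at 0 in both. All 9 fibroblast markers lay below 0 and 7 were past 1.5-fold, with a summed level of 890 FPKM with probucol and 1390 untreated (median log2 ratio -0.83). Each of the 9 macrophage markers lay past the 1.5-fold limit on the lower side, with sums of 944 and 3164 FPKM. Of 10 vascular endothelial markers, 0 passed the limit in either direction, with sums of 2217 FPKM with probucol and 2656 untreated (median 0.11). Of 9 smooth muscle and pericyte markers, 1 was lower by the limit, with a median of -0.12.

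Set against these lists, Mest (-1.20) lay below the lowest of the 9 fibroblast markers, Col1a1 (-0.91). The FPKM ratio of Col1a1, 0.528, falls inside the counting interval of Mest, between 0.291 and 0.553. These genes are therefore not separated beyond counting error. Mest lay within the range of the 5 activated fibroblast markers, which ran between -1.75 (Tnc) and -0.20 (Acta2) with a median of -1.40. It also lay within that of the macrophage markers, between -2.35 and -0.72. Meg3, Rian and Plagl1 lay within the range of fibroblast markers, between -0.91 and -0.47. They also lay within that of 3 measured epicardial and mesothelial markers, between -0.90 and -0.40, and Plagl1 within that of smooth muscle and pericyte markers. As a share of the summed fibroblast markers, Mest stood at 0.424% with probucol and 0.672% untreated. Most of that sum was Dcn, with 547 FPKM with probucol and 786 untreated (log2 ratio -0.52), so the share rests mainly on 1 marker. Igf2 and Grb10 lay within the ranges of vascular endothelial markers (between -0.32 and 0.53), of smooth muscle and pericyte markers (between -0.59 and 0.46) and of lymphatic and endocardial markers (between -0.36 and 0.65). Cdkn1c (1.71), picked for its difference, lay above every measured cardiomyocyte, fibroblast, endothelial, smooth muscle and macrophage marker of these lists. It lay below the platelet markers Gp9 (3.16), Itga2b (2.07) and Ppbp (2.07). The part of the cell types in the members' differences was not tested. Of 5 measured platelet markers 4 were past 1.5-fold on the higher side and Pf4 on the lower (sums of 81.7 FPKM with probucol and 115 untreated), and all 3 measured erythroid markers were higher (sums of 3342 and 1719 FPKM). Their part in the value of Cdkn1c was not tested either.

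**Figure D5:**
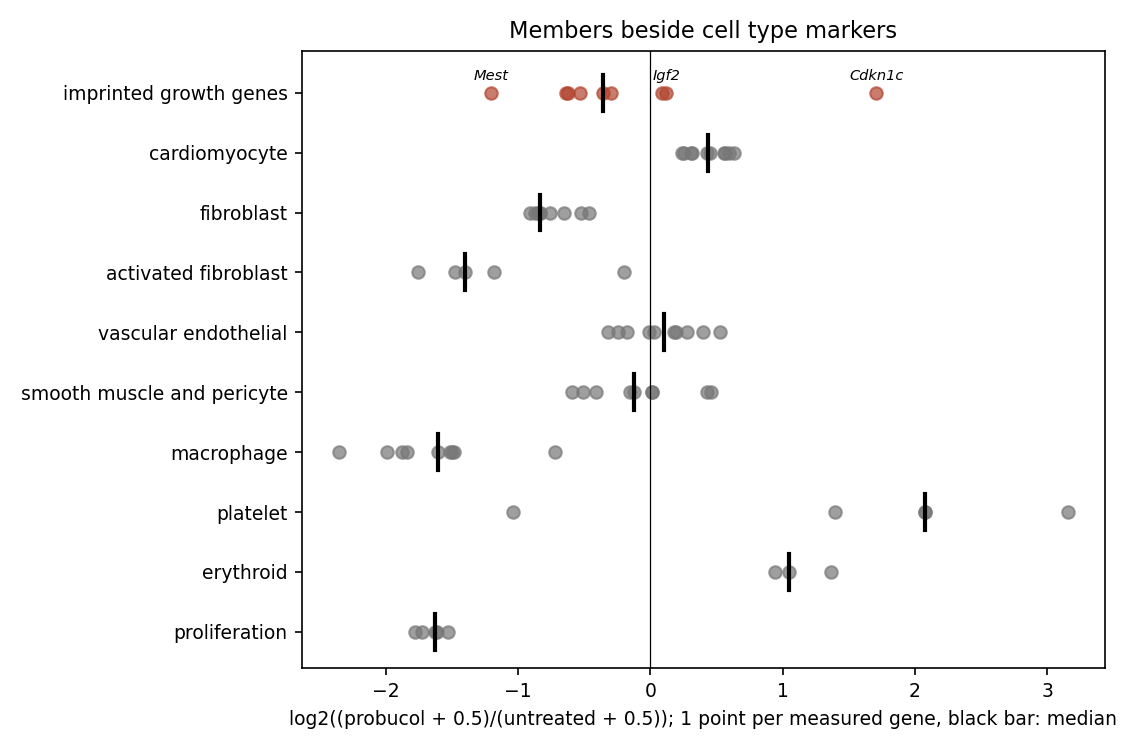
Log2 ratio of the 9 measured imprinted growth genes (red, top row) and of measured markers of cell types and of proliferation (grey), 1 point per gene with the median as a black bar. Mest lies left of every point in the fibroblast row, though its counting interval reaches Col1a1, the lowest of that row. It lies within the activated fibroblast and macrophage rows, and 3 platelet markers lie right of Cdkn1c.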

How the data were processed

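Per the file headers, the deposited values are the authors' FPKM, 1 per gene symbol and library. Cuffdiff 2.2.1, TopHat2 2.1.1, Bowtie2 and the build mm10 are named in the submitters' processing notes, with no roles; annotation and scaling are not stated. The kits were miRNeasy for total RNA and TruSeq stranded mRNA for libraries, per the labels' protocols.

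Groups came from the treatment label. Log2 ratios were computed (Python 3.11.15, pandas 2.3.3, scipy 1.17.1) without rescaling, with a pseudocount of 0.5 FPKM and a minimum mean of 0.5 FPKM, and genes past 1.5-fold were counted; no test is possible with 1 library per group. FPKM moves with whatever else was sequenced, so abundant transcripts shift all others. With 210 bases subtracted from the transcript length, 269 of 936 low genes with 1 transcript (probucol) and 279 of 949 (untreated) fell within 1% of the value of 1 fragment. Fragment estimates used GENCODE vM21 transcripts matched to RefSeq, and intervals the shortest of them. The counting was tested on simulated data.

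The members and lists were chosen with earlier results of these data known. Named were all members, list genes past 1.5-fold (up to 6 per list), the partners Igf1, Igf1r, Igf2r, Cdkn1a and Cdkn1b, and the 3 genes ranked on each side of Cdkn1c; others were chosen after their values were seen. Alternatives were pseudocounts of 0.1 and 1 FPKM, filters, scalings and a 2-fold limit.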

Additional observations from a re-analysis of the deposited data

How the results depend on the processing

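Cdkn1c remained the 1 higher member and Mest a lower member under every pseudocount, filter, scaling and fold limit tried, with log2 ratios between 1.54 and 1.88 for Cdkn1c and between -1.37 and -1.12 for Mest. The count of lower members was 1 instead of 3 with a pseudocount of 1 FPKM and 1 with the 2-fold limit, since Meg3 and Rian lie near the 1.5-fold limit. The members' median of -0.36 moved to -0.50 with a pseudocount of 0.1 FPKM and to -0.50 after rescaling to a sum of 1000000 FPKM per library. That rescaling moved the median of all measured genes to -0.13; it also left 0 of the wider imprinted genes at least 1.5-fold higher, as did the 2-fold limit, and took their median to -0.038, while without a filter that median was 0. Over all measured genes, 711 were higher and 1541 lower by the 1.5-fold limit, and 426 and 2137 after that rescaling. Of 50 member values under other pseudocounts and scalings, 4 moved beyond their counting interval or, for genes with none, by over 0.1; Igf2 and Grb10 changed sign, each under 1 scaling. No paired analysis was possible because each group has 1 library, and for the same reason no replicate could be left out. Depth limits Dlk1, at about 1 fragment or fewer. The interval of Meg3 is the widest on the log scale, but it rests on the shortest transcript, with 11 and 22 fragments. With the longest transcript Meg3 had 90 and 186 fragments, so whether depth limits it depends on the transcript. The depth of Rian is unknown.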

Other observations

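Regulators of imprinting are here the enzymes and other proteins that place, read, keep or remove methylation marks, or act with them. Of 10 measured, 0 were at least 1.5-fold higher and 1 was at least 1.5-fold lower, beside 5.52% and 12% of all measured genes. The median log2 ratio of the 10 was -0.13. The lower gene was Uhrf1, which brings the maintenance methyltransferase to newly copied DNA in dividing cells. It had 0.468 FPKM with probucol and 3.12 untreated, a log2 ratio of -1.90, from about 10 and 74 fragments, with an interval of the FPKM ratio between 0.0695 and 0.293. Dnmt1, the maintenance methyltransferase itself, had 4.21 FPKM with probucol and 5.73 untreated. Zfp57, a zinc finger protein that protects imprinted marks in the embryo, had 1.02 and 0.712 FPKM from about 11 and 8 fragments. The 5 proliferation markers had a median log2 ratio of -1.62 in the same libraries, and their part in the value of Uhrf1 was not tested.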
